A study of Homo sapiens and Mus musculus with 10 samples.

Results

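The genes of glycolysis, lactate handling and the pentose phosphate pathway were followed through treatment of acute myeloid leukemia cells and mouse ER-Hoxa9 cells with WM-1119, an inhibitor of the histone acetyltransferase KAT6A. The list held 38 symbols, of which 36 were found among the 27800 symbols of the human table and 37 among the 24493 symbols of the mouse table. The list was defined by pathway membership, but it was chosen with earlier results of these data known. Phosphoglucose isomerase is GPI in the human table and Gpi1 in the mouse table.

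Messenger RNA levels were measured by RNA sequencing in 10 libraries. MOLM-13, an established human line from an acute myeloid leukemia, was treated with DMSO (3 libraries) or with 4 µM WM-1119 for 4 days (3 libraries). ER-Hoxa9, a mouse myeloid progenitor line kept immature by an estrogen receptor fusion of Hoxa9 and grown in stem cell factor conditioned medium with 0.5 µM β-estradiol in both groups, was treated with DMSO (2 libraries) or with 2 µM WM-1119 for 4 days (2 libraries). The stated purpose was to learn how KAT6A inhibition alters the transcription program of leukemic cells. Each line is a single cell line, the doses differ between them, and the labels do not say that libraries came from separate cultures, so the p-values measure only the spread between these libraries. Values are in TPM, a unit that corrects for transcript length and gives each gene as a share of its library. They keep no record of sequencing depth, so the depth is unknown and no counting interval is given.

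Glycolysis splits glucose into pyruvate in the cytosol and yields ATP without oxygen. Pyruvate is then either reduced to lactate, which leaves the cell through proton-coupled carriers, or oxidized in mitochondria by the pyruvate dehydrogenase complex, which the PDK kinases switch off. The pentose phosphate pathway branches from phosphorylated glucose and makes NADPH and ribose. Many glycolytic genes are textbook targets of the hypoxia-inducible factors (HIF), which bind a short element with the core ACGTG or GCGTG, and many are also bound by MYC at the E-box CACGTG.

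In neither line did a member pass the test. Of the 35 members that averaged 1 TPM or more in MOLM-13, 0 had an adjusted p under 0.05, where 1 of 12436 genes was called (0.00804%). Of the 35 that reached this level in ER-Hoxa9, 0 passed, where 4 of 11362 genes were called (0.0352%). The test was limma on log2(TPM + 1), two-sided, with Benjamini-Hochberg adjustment over all genes tested. At an unadjusted p under 0.05, 1 member was higher and 0 were lower with WM-1119 in MOLM-13, against 2.08% and 0.965% of all genes, and 5 were higher and 0 lower in ER-Hoxa9, against 11.6% and 1.13%. PFKFB2 in MOLM-13, and Eno2 and Ldhb in ER-Hoxa9, lay under the expression minimum and were not tested. Many members instead varied widely between libraries of the same group.

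Library composition moved with the replicate number in MOLM-13. Ribosomal protein genes took 25.8% to 28.5% of the TPM in replicates 1 and 2 of MOLM-13, but 40.0% with DMSO and 34.1% with WM-1119 in replicate 3. The globin gene HBA1 was listed at 95.2 and 158 TPM in those 2 libraries and at no more than 0.439 TPM in the other 4. MicroRNA genes took 20.3% with DMSO and 22.0% with WM-1119 in replicate 2 of MOLM-13, and 13.2% to 18.0% in replicates 1 and 3. In ER-Hoxa9, ribosomal protein genes took 35.1% and 30.9% with DMSO and 29.8% and 28.7% with WM-1119, replicates 1 and 2. The part of these shares in the members' values was not tested. The members together took 1.05% to 1.91% of a MOLM-13 library and 0.715% to 1.56% of an ER-Hoxa9 library. Of 10 listed myeloid progenitor markers 8 averaged 1 TPM or more in MOLM-13, with PRTN3 the most abundant at 3422 to 7490 TPM, but CD34 was listed at 0 in all 6 libraries and KIT at 0.0985 to 0.435 TPM. In ER-Hoxa9 all 9 listed markers reached that level, with Mpo the most abundant at 385 to 1512 TPM. Libraries of MOLM-13 with the same number deviated together across genes, so their pairs are given beside the groups.

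Spread between libraries was widest for PFKFB4, ALDOC and ENO2 among the tested human members that have a single listed start, with the highest DMSO library at 12.8, 7.62 and 6.84 times the lowest. It was narrowest for PFKL, LDHB and PGLS, at 1.32, 1.26 and 1.18 times. The 250 bases before the RefSeq start of these genes (build GRCh38.p14) are shown to set the promoters of the variable genes beside those of the steady ones, a choice made after the values were seen. Capitals mark the HIF core (ACGTG or GCGTG) and the E-box on either strand, with overlapping matches joined. Each is read 5′ to 3′ along the gene's strand. PFKFB4 lies on the minus strand at chr3:48556804-48557053, ALDOC on the minus strand at chr17:28576896-28577145 and ENO2 on the plus strand at chr12:6914330-6914579. PFKL lies on the plus strand at chr21:44299803-44300052, LDHB on the minus strand at chr12:21657843-21658092 and PGLS on the plus strand at chr19:17511399-17511648.
PFKFB4: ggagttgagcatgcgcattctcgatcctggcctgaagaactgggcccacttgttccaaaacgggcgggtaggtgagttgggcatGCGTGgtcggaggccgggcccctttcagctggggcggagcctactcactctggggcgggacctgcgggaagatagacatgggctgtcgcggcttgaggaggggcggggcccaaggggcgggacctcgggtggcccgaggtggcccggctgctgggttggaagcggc
ALDOC: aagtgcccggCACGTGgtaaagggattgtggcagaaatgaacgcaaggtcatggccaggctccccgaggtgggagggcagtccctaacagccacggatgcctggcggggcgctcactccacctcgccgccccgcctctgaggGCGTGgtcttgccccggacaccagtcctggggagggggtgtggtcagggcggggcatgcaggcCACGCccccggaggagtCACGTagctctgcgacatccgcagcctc
ENO2: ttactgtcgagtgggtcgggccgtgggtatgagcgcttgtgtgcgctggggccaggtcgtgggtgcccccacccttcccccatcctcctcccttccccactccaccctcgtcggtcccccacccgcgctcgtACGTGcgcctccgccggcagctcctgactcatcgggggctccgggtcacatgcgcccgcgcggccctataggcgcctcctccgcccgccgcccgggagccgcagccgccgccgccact
PFKL: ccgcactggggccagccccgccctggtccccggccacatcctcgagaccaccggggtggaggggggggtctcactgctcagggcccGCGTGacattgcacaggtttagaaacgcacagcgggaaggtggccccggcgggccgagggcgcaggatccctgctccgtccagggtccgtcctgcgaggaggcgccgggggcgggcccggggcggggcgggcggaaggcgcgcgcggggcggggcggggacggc
LDHB: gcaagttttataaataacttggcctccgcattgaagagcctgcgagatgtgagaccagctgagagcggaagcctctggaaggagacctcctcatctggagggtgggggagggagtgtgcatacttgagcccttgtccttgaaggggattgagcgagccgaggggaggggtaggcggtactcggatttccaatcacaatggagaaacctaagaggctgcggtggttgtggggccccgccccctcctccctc
PGLS: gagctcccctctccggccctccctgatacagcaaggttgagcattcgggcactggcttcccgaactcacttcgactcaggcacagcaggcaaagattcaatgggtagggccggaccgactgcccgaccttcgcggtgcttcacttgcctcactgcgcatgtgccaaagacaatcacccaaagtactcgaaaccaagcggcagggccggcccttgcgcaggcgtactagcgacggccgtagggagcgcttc

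The ALDOC window held 4 capitalized stretches, 1 of them an E-box, the PFKFB4, ENO2 and PFKL windows held 1 each, and the LDHB and PGLS windows held 0. Of the 36 listed human members, 33 were matched to RefSeq promoters by symbol, with 60 windows in all. Of these, 32 (53.3%) held ACGTG or GCGTG, against 43.2% of the 35116 windows of all genes. The E-box stood in 7 of the 60 (11.7%), against 6.34% of all windows. Members had 1.82 windows per gene, against 1.29 over all genes. Counted per gene, with a match in any of its windows, 24 of the 33 (72.7%) held ACGTG or GCGTG and 7 (21.2%) the E-box, against 47.4% and 7.73% of all 27305 genes. Here all genes means every gene with a promoter window, whether or not it was expressed in MOLM-13, and base composition was not matched. These are letter matches, not measured binding.

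**Figure D1:**
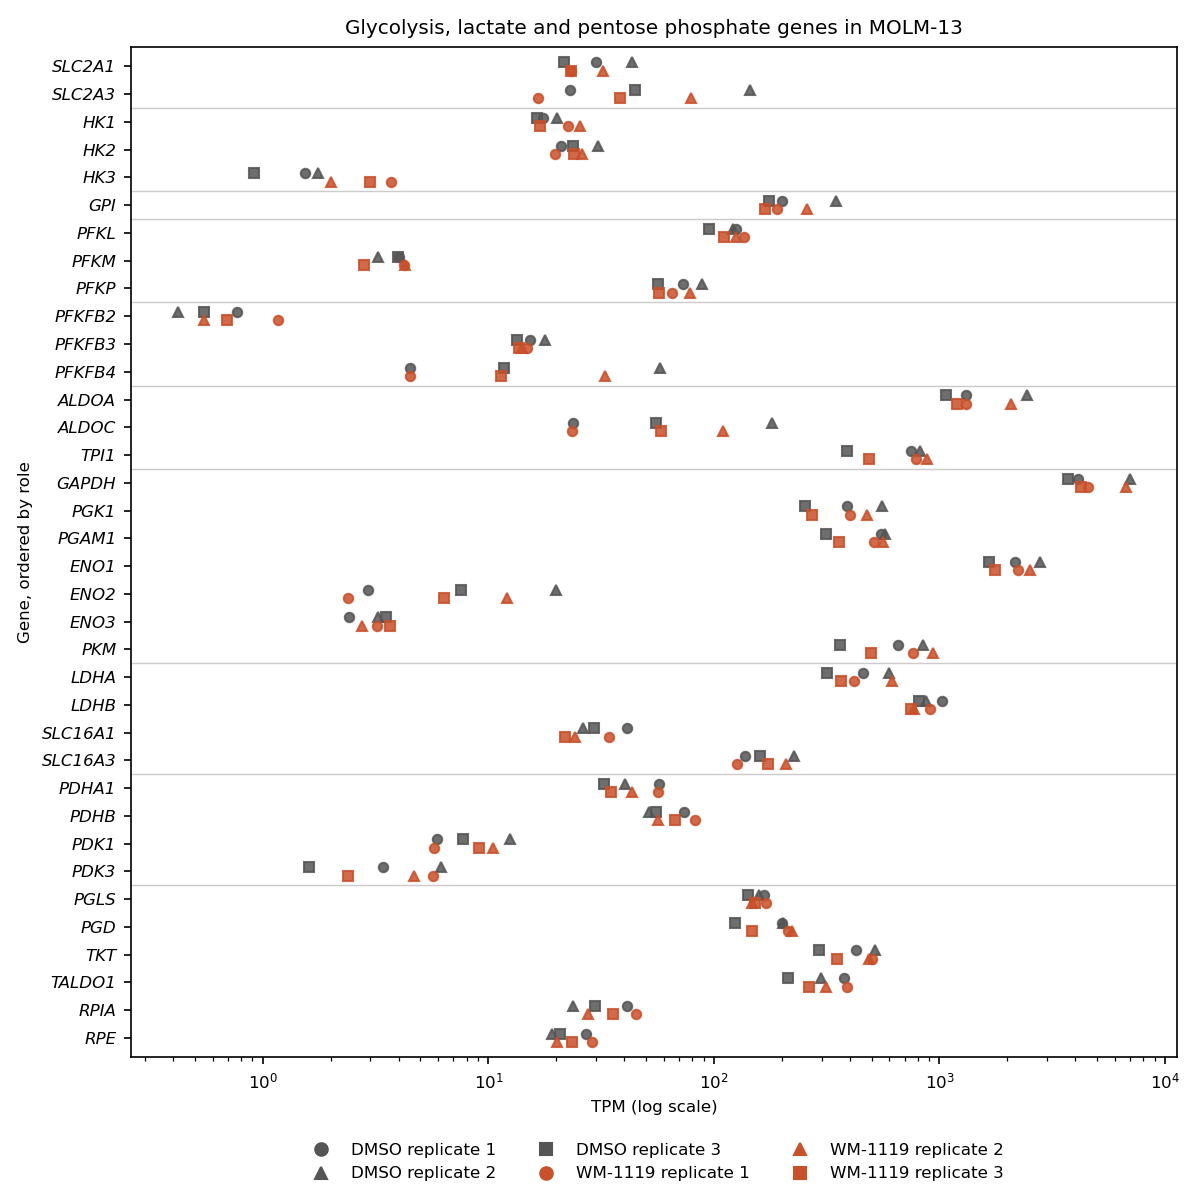
Level of each listed member in MOLM-13 in TPM on a log axis, with grey symbols for the 3 DMSO libraries, orange symbols for the 3 WM-1119 libraries and the shape giving the replicate number. Triangles (replicate 2) lie rightmost in both groups for 20 of the 35 tested genes, and grey and orange symbols of a gene mostly interleave.

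Glucose enters through SLC2A1 (GLUT1) and SLC2A3 (GLUT3), the latter the higher-affinity carrier. SLC2A3 (GRCh38 chromosome 12, 7919230 to 7936275, minus strand) was at 23.02, 145 and 44.6 TPM with DMSO and 16.5, 78.8 and 38.2 TPM with WM-1119 in MOLM-13, replicates 1, 2 and 3 in that order here and below. Each WM-1119 library lay below its same-numbered DMSO library, yet replicate 2 of either group exceeded every other library and the groups overlapped. The difference on the log2(TPM + 1) scale was -0.52 ± 0.75 (SE), with a limma adjusted p of 0.999985, and 0.195 when the replicate number was taken as a block. SLC2A1 was at 30.1, 43.4 and 21.6 TPM with DMSO and 23.2, 32.3 and 23.3 TPM with WM-1119, lower in pairs 1 and 2 and slightly higher in pair 3.

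Hexokinases trap glucose in the cell by phosphorylation. HK1, the broadly expressed form, was at 17.4, 20.2 and 16.4 TPM with DMSO and 22.6, 25.4 and 16.96 TPM with WM-1119, a log2 difference of 0.24 ± 0.20 (SE), higher in all 3 pairs. HK2, the inducible form, was at 21.03, 30.7 and 23.8 TPM with DMSO and 19.7, 25.9 and 23.9 TPM with WM-1119, with a log2 difference of -0.11 ± 0.21 (SE). Neither separated the groups. HK3 (GRCh38 chromosome 5, 176880869 to 176899332, minus strand), a form found mainly in myeloid cells, was at 1.54, 1.76 and 0.914 TPM with DMSO and 3.69, 2.001 and 2.998 TPM with WM-1119, and here every WM-1119 library lay above every DMSO library. HK3 was the only member whose groups did not overlap, where 4.54% of all genes lay wholly above and 2.43% wholly below. Its log2 difference was 0.69 ± 0.25 (SE), with a limma adjusted p of 0.999985, and of 0.241 with the block. HK3 is a gene of low level in MOLM-13, so the pseudocount reduces this difference. Marker lists of myeloid cells moved with treatment in part. In the progenitor list all 8 tested genes had positive log2 differences, with a median of 0.18 beside 0.05 for all genes. Of these, 6 were higher in all 3 pairs, where 28.6% of all genes were, and 0 had an unadjusted limma p under 0.05. Its summed TPM overlapped between groups, at 7013 to 12744.5 with DMSO and 8805 to 13227 with WM-1119. The summed TPM of the monocyte and macrophage list, 7 of 10 listed members tested, ran from 811 to 2188 with DMSO and from 2344 to 3553 with WM-1119, and LYZ, a lysozyme gene, made up most of it at 1969, 1465 and 607 TPM with DMSO and 3292, 2894 and 2090.4 TPM with WM-1119. In that list LYZ, CYBB and FCGR1A had an unadjusted p under 0.05 and a higher level, while CCR2, a chemokine receptor, lay wholly below DMSO, at 33.9, 31.8 and 28.1 TPM with DMSO and 21.7, 25.97 and 20.9 TPM with WM-1119 (log2 difference -0.44 ± 0.18 SE). Of all genes, 2.08% were higher and 0.965% lower at an unadjusted p under 0.05. The neutrophil list, 5 of 11 tested and 1 at 0 in every library, ran from 29.2 to 61.0 with DMSO and from 61.9 to 109.9 with WM-1119. No gene of these lists passed limma's adjusted test. Their part in the HK3 values was not tested. In RNA from whole cultures, a change in the share of a cell state and a change in RNA per cell cannot be told apart.

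The next steps isomerize and commit the sugar to glycolysis. GPI was at 201, 348 and 176 TPM with DMSO and 190.0, 258 and 169 TPM with WM-1119, lower in all 3 pairs with a log2 difference of -0.19 ± 0.30 (SE). Of the phosphofructokinases, the rate-setting enzymes, the liver-type PFKL was the most abundant at 126, 122 and 95.03 TPM with DMSO and 136, 126 and 111 TPM with WM-1119, higher in all 3 pairs by 0.13 ± 0.19 (SE) on the log2 scale. PFKP, the platelet type, was at 72.8, 88.8 and 56.5 TPM with DMSO and 65.4, 78.7 and 56.8 TPM with WM-1119, and PFKM, the muscle type, stayed between 2.82 and 4.27 TPM in the 6 libraries. In all 3 genes the groups overlapped.

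The bifunctional PFKFB enzymes set the level of the activator of phosphofructokinase. PFKFB4 (GRCh38 chromosome 3, 48517684 to 48562015, minus strand) was at 4.51, 57.8 and 11.7 TPM with DMSO and 4.47, 32.8 and 11.4 TPM with WM-1119. The same-numbered libraries were almost equal in replicates 1 and 3, and in replicate 2 the WM-1119 library was the lower, so the log2 difference of -0.28 ± 0.94 (SE) carried the largest standard error of the members named here. PFKFB3 was at 15.3, 17.8 and 13.4 TPM with DMSO and 14.9, 14.1 and 13.6 TPM with WM-1119, and PFKFB2 lay between 0.423 and 1.16 TPM. The PFKFB4 difference changed sign when the DMSO library of replicate 2 was left out, to 0.66. With both libraries of replicate 2 left out in the block fit, it was -0.02.

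Aldolase and triose phosphate isomerase make the trioses. ALDOA, the main aldolase, was at 1314, 2436 and 1068 TPM with DMSO and 1312, 2081 and 1190.0 TPM with WM-1119, a log2 difference of -0.02 ± 0.35 (SE). ALDOC, a form best known from brain, was at 23.7, 181 and 55.6 TPM with DMSO and 23.6, 110.1 and 58.4 TPM with WM-1119, with replicate 2 far above the others in both groups. TPI1 was at 744, 819 and 389.8 TPM with DMSO and 789, 882 and 486 TPM with WM-1119, higher in every pair while the groups overlapped.

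**Figure D2:**
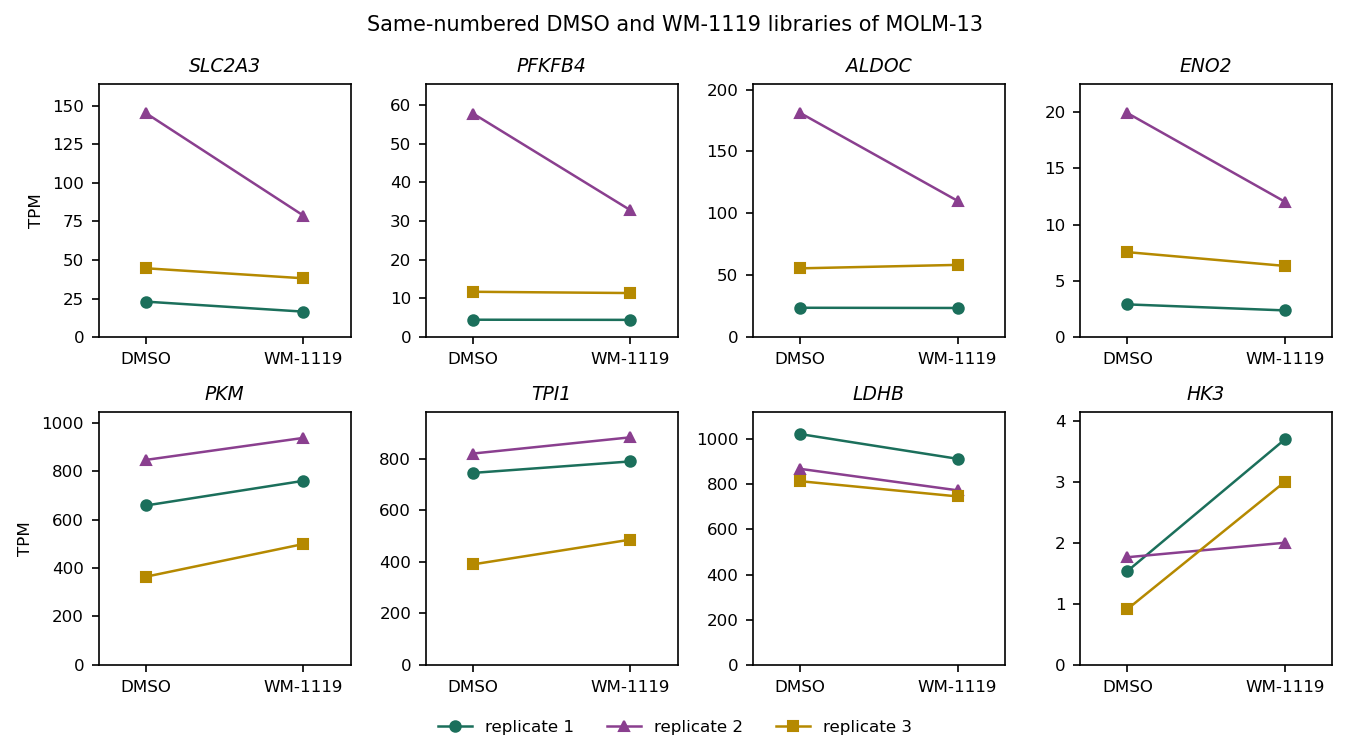
TPM of 8 members in MOLM-13, with a line joining the DMSO and WM-1119 library of the same replicate number and a separate linear axis from 0 for each gene. SLC2A3, PFKFB4, ENO2 and LDHB were lower with WM-1119 in all 3 pairs and PKM, TPI1 and HK3 higher in all 3, while in the upper row replicate 2 lies above the other numbers in both groups.

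Lower glycolysis recovers ATP from the trioses. GAPDH, often used as a reference gene, was the most abundant member at 4128, 6988 and 3733 TPM with DMSO and 4561, 6722 and 4261 TPM with WM-1119, a log2 difference of 0.09 ± 0.28 (SE). Within the DMSO group its highest library stood at 1.87 times its lowest, which is more than any same-numbered difference between the treatments. The enolase ENO1 was at 2157, 2790.0 and 1656 TPM with DMSO and 2222, 2516 and 1763 TPM with WM-1119. The mutase PGAM1 lay at 313 to 574 TPM and PGK1 at 389.6, 555 and 253 TPM with DMSO and 401, 479 and 271 TPM with WM-1119. The pyruvate kinase gene PKM, which makes pyruvate, was at 658, 846 and 364 TPM with DMSO and 759.6, 937 and 499 TPM with WM-1119, higher in all 3 pairs. The neuronal enolase ENO2 was at 2.91, 19.9 and 7.56 TPM with DMSO and 2.38, 12.04 and 6.33 TPM with WM-1119, lower in all 3 pairs with replicate 2 again highest, and the muscle enolase ENO3 stayed between 2.42 and 3.67 TPM. No gene of this step separated the groups.

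Lactate dehydrogenase has an A subunit that favours lactate formation and a B subunit that favours its oxidation. LDHA was at 457, 599 and 318 TPM with DMSO and 418, 617 and 368 TPM with WM-1119, with pair 1 lower and pairs 2 and 3 higher. LDHB was at 1022, 868 and 813 TPM with DMSO and 912, 773 and 746 TPM with WM-1119, lower in all 3 pairs by a log2 difference of -0.15 ± 0.17 (SE). The carrier SLC16A1 (MCT1) was at 41.3, 26.3 and 29.3 TPM with DMSO and 34.3, 24.2 and 21.8 TPM with WM-1119, lower in all 3 pairs with a log2 difference of -0.26 ± 0.25 (SE). SLC16A3 (MCT4), the carrier typical of lactate-exporting cells, was at 137, 226 and 161 TPM with DMSO and 127, 209.6 and 174 TPM with WM-1119. In all 4 genes the groups overlapped. LDHB alone lay wholly below DMSO once the libraries were rescaled by median-of-ratios factors, where 4.49% of all genes did.

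PDHB, a subunit of the enzyme that feeds pyruvate to mitochondria, was at 73.6, 51.8 and 55.2 TPM with DMSO and 82.05, 56.8 and 67.1 TPM with WM-1119, higher in all 3 pairs by 0.19 ± 0.22 (SE) on the log2 scale. PDHA1 was at 56.9, 40.5 and 32.6 TPM with DMSO and 56.6, 43.2 and 34.9 TPM with WM-1119. The inhibitory kinases PDK1 and PDK3 were at 5.72 to 12.4 TPM and 1.60 to 6.16 TPM, with groups that overlapped.

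All 6 pentose phosphate members listed in MOLM-13 had positive log2 differences, with a median of 0.14, where 38.5% of all genes had negative ones. After median-of-ratios rescaling PGD, RPIA and RPE were still higher in all 3 pairs, and PGLS was lower in all 3. The oxidative enzyme PGD was at 199, 202 and 124 TPM with DMSO and 213, 223 and 147 TPM with WM-1119 and the transaldolase TALDO1 at 378, 299 and 214 TPM with DMSO and 391, 314 and 264 TPM with WM-1119, both higher in all 3 pairs. The ribose-forming RPIA, at 41.1, 23.6 and 29.7 TPM with DMSO and 44.96, 27.5 and 35.7 TPM with WM-1119, and RPE, at 26.97, 19.1 and 20.9 TPM with DMSO and 28.7, 20.2 and 23.5 TPM with WM-1119, were also higher in all 3. TKT, the transketolase and most abundant of the 6, was at 428, 519 and 293 TPM with DMSO and 501, 487 and 352 TPM with WM-1119, higher in pairs 1 and 3 and lower in pair 2, with a log2 difference of 0.13 ± 0.26 (SE). PGLS, the lactonase, was at 167, 158 and 141 TPM with DMSO and 170.3, 148 and 152 TPM with WM-1119. Their DMSO and WM-1119 ranges overlapped in each case.

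Over the list, 10 of 35 tested members were higher with WM-1119 in all 3 pairs of MOLM-13 (HK1, HK3, PFKL, TPI1, PKM, PDHB, PGD, TALDO1, RPIA and RPE), where 28.6% of all genes were. Another 6 were lower in all 3 (SLC2A3, GPI, PFKFB4, ENO2, LDHB and SLC16A1), where 14.4% were. In TPM as deposited both shares are near those of all genes. With the replicate number as a block, 5 members had an unadjusted p under 0.05 and a higher level (HK1, HK3, PKM, PDHB and RPIA) and 3 a lower level (SLC2A3, ENO2 and SLC16A1), against 13.2% and 4.91% of all genes, and 0 passed the adjustment. The block with median-of-ratios rescaling gave 2 higher and 8 lower at that level, beside 1090 and 1149 of 12441 genes, and again 0 passed. The median log2 difference of the members was 0.01, with 18 positive and 17 negative, beside 0.05 for all genes tested. Median-of-ratios rescaling gave -0.06 with 14 positive, beside -0.01 for all genes, and under it 8 members were higher and 15 lower in all 3 pairs (19.4% and 23.2% of all genes). Without the DMSO library of replicate 2, in TPM as deposited, the median was 0.18 with 31 positive, and without that of replicate 3 it was -0.14 with 8 positive. Leaving out a single library sets unlike numbers against each other. With a whole pair left out in the block fit, the median was 0.07 with 24 positive for pair 2. For pair 3 it was -0.04 with 16 positive.

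The spread between libraries was the larger quantity in MOLM-13. Replicate 2 was the highest library of both groups for 20 of 35 members, where 12.3% of all genes showed this. The highest DMSO library was at least 2 times the lowest for 11 members, where 22.4% of all genes reached that ratio, and the median ratio was 1.77 for the members beside 1.58 for all genes. Summed over the members, the libraries held 13524, 19142 and 10549 TPM with DMSO and 14079, 17942 and 11763 TPM with WM-1119.

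HIF targets outside glycolysis were also highest in replicate 2, but lowest in replicate 1, whereas the members as a whole were lowest in replicate 3. All genes tested were lowest there too, with median deviations of -0.20 with DMSO and -0.09 with WM-1119. DMSO replicate 3 was the lowest DMSO library for 22 of 35 members and for 56.4% of all genes. The median deviations of the HIF targets from the gene means were, with DMSO and then WM-1119, -0.51 and -0.46 for number 1, 0.73 and 0.13 for number 2, and -0.15 and -0.10 for number 3. The order of the HIF targets, with replicate 1 lowest and replicate 2 highest in each group, was found in 7 of 35 members (SLC2A3, HK2, PFKFB4, ALDOC, ENO2, SLC16A3 and PDK1), where 3.07% of all genes had it. After median-of-ratios rescaling 10 members had it, with ALDOA, GAPDH and GPI added, where 5.89% of all genes did. Of 18 HIF targets tested, 14 were highest in replicate 2 of both groups, 13 had a DMSO ratio of at least 2, and 15 had negative log2 differences (median -0.15), 6 of them lower in all 3 pairs and 0 higher. NDRG1, a stress-induced gene and the most abundant of them, was at 98.3, 729 and 244 TPM with DMSO and 92.6, 357 and 199 TPM with WM-1119. CA9, a carbonic anhydrase that is a standard mark of hypoxia, was at 0.0404, 6.84 and 2.01 TPM with DMSO and 0, 1.11 and 0.297 TPM with WM-1119. Of the 18, 0 passed limma's test and 0 had an unadjusted p under 0.05. The part of these genes in the members' spread was not tested.

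**Figure D3:**
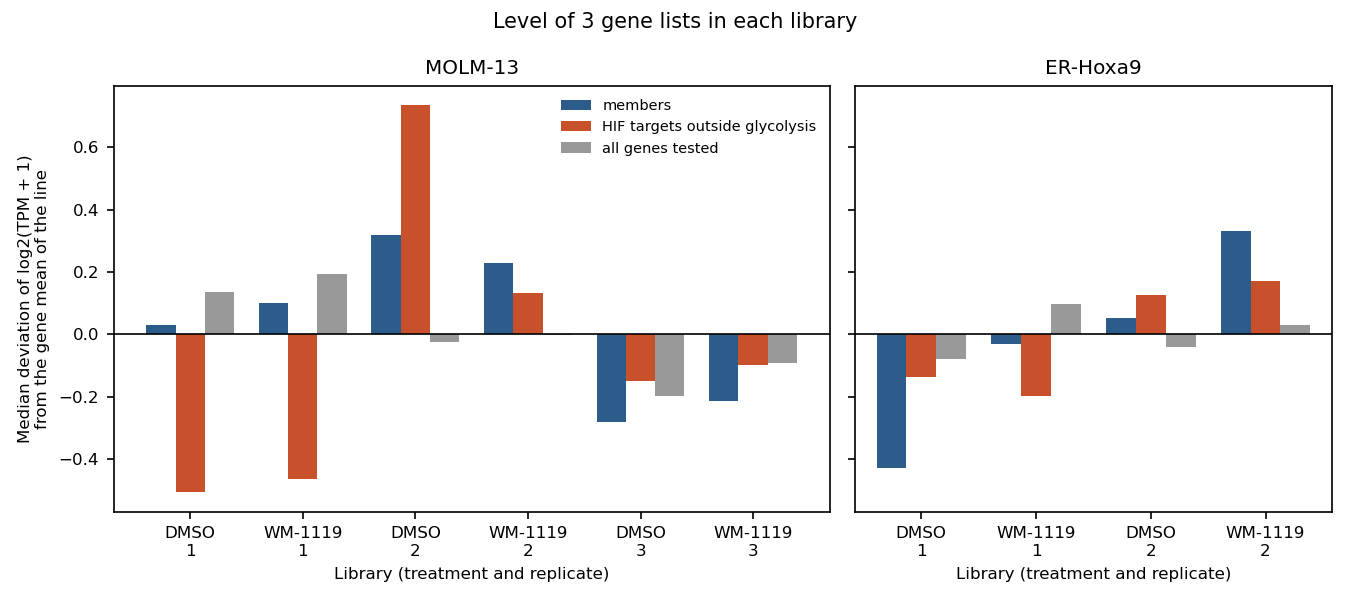
Median deviation of log2(TPM + 1) from each gene's mean over its line, per library, for the members (blue), the HIF targets outside glycolysis (orange) and all genes tested (grey); bars start at 0. In MOLM-13 the members stood at 0.32 and 0.23 in the libraries of replicate 2 and at -0.28 and -0.21 in those of replicate 3, and in ER-Hoxa9 at -0.43 in DMSO replicate 1 and 0.33 in WM-1119 replicate 2.

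In ER-Hoxa9 most members stood higher with WM-1119, but for many the libraries of a group differed by as much. Much of that spread was shared by same-numbered libraries. With the replicate number as a block, the SE fell from 0.51 to 0.09 for Aldoa and from 0.69 to 0.10 for Pfkl. In that fit 16 members were higher and 0 lower at an unadjusted limma p under 0.05, beside 1761 and 273 of 11362 genes. None passed the adjustment. Standard errors given below are without the block. Positive log2 differences were found for 30 of 35 tested members, with a median of 0.29 beside 0.12 for all genes tested. Median-of-ratios rescaling moved the median of all genes from 0.12 to -0.01, and gave a median of 0.15 for the members with 27 positive. All WM-1119 libraries lay above all DMSO libraries for 9 members, where 40.3% of all genes did, and below for 2 (Pfkfb3 and Pgls), where 7.94% did. After rescaling, 5 lay wholly above, among them Pfkm, Pfkfb4, Tkt and Taldo1, where 21.2% of all genes did, and 4 wholly below (Pfkfb3, Slc16a1, Pgls and Rpe), where 24.1% did. Between libraries of the same number, 28 members were higher with WM-1119 in both pairs, where 53.0% of all genes were, and 3 were lower in both (15.7%). After rescaling these counts were 23 and 6, where 31.2% and 36.1% of all genes were. Without DMSO replicate 1 the median log2 difference of the members was 0.04 with 18 positive, and without WM-1119 replicate 2 it was 0.06 with 20 positive. Without DMSO replicate 2 it was 0.58, and without WM-1119 replicate 1 it was 0.50, each with 29 positive. Replicate 2 was the higher library in both groups for most members, so leaving out a single library sets unlike numbers against each other.

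**Figure D4:**
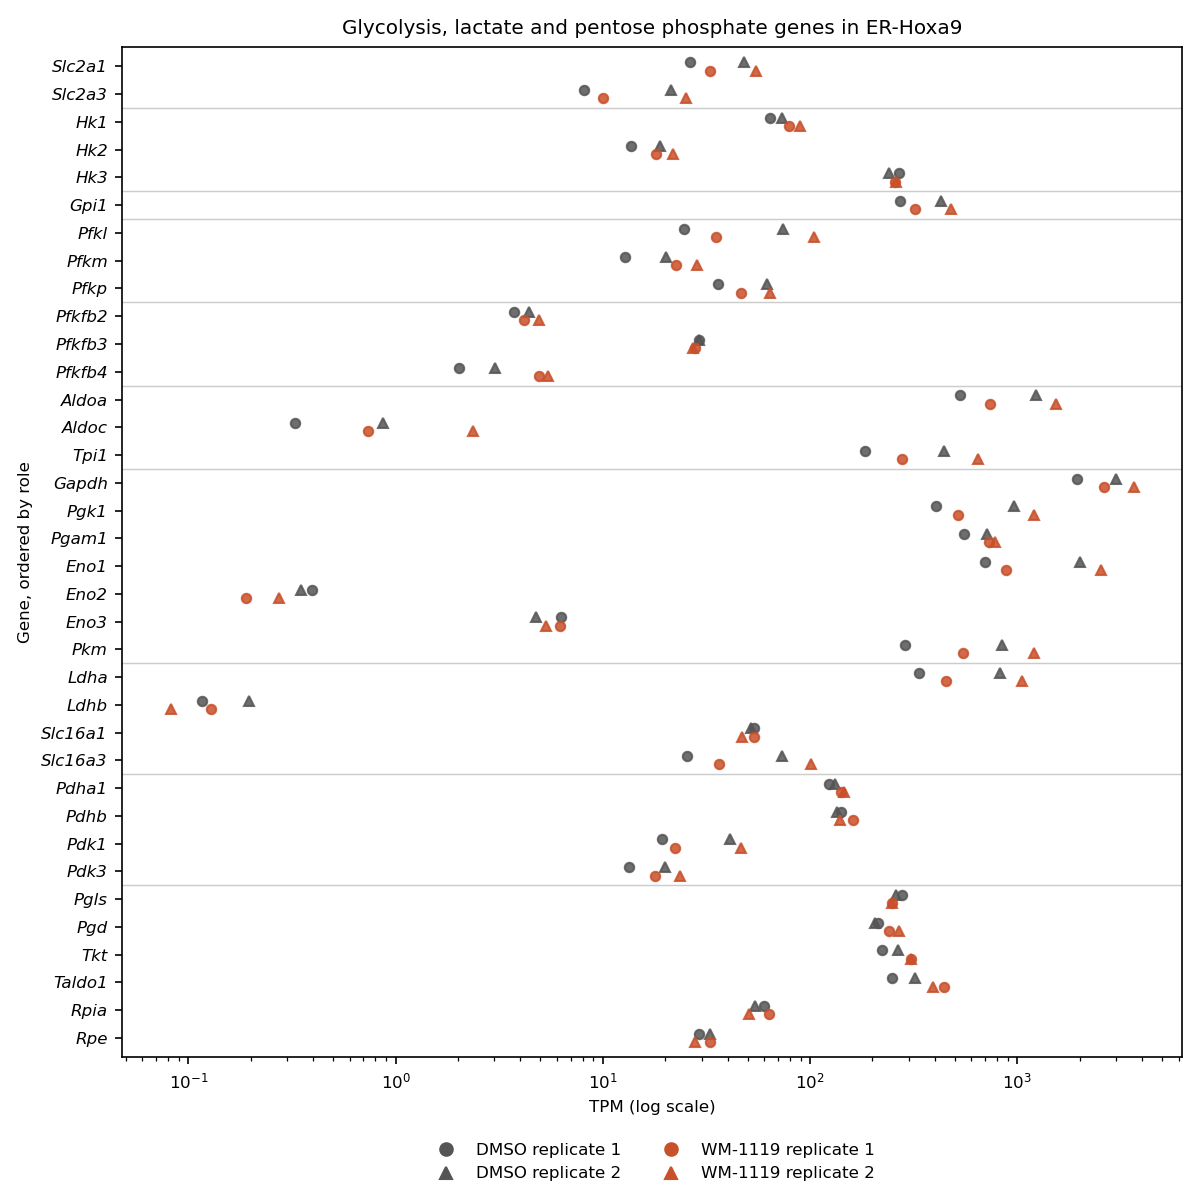
Level of each member described in ER-Hoxa9 in TPM on a log axis, with grey symbols for the 2 DMSO libraries, orange symbols for the 2 WM-1119 libraries and the shape giving the replicate number. For most glycolytic genes the DMSO library of replicate 2 lies to the right of the WM-1119 library of replicate 1, while Pfkfb4, Tkt and Taldo1 show both orange symbols to the right of both grey ones.

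The carriers showed this overlap. Slc2a1 was at 26.2 and 48.2 TPM with DMSO and 33.02 and 54.9 TPM with WM-1119, libraries 1 and 2 in that order here and below, with a log2 difference of 0.25 ± 0.36 (SE), and Slc2a3 was at 8.12 and 21.4 TPM with DMSO and 10.1 and 25.1 TPM with WM-1119. In both the second DMSO library exceeded the first WM-1119 library. Among hexokinases Hk3 was the most abundant, at 268 and 239.9 TPM with DMSO and 257 and 260.3 TPM with WM-1119 and a log2 difference of 0.03 ± 0.11 (SE), which turned to -0.12 after rescaling. Hk1 was at 64.2 and 72.8 TPM with DMSO and 79.5 and 89.8 TPM with WM-1119, with the groups apart, and Hk2 at 13.6 and 18.9 TPM with DMSO and 18.01 and 21.9 TPM with WM-1119, with overlap. In MOLM-13, whose table was made separately, HK3 did not exceed 3.69 TPM.

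Gpi1 was at 271 and 427 TPM with DMSO and 321 and 481 TPM with WM-1119, a log2 difference of 0.20 ± 0.29 (SE). Pfkl was at 24.6 and 73.97 TPM with DMSO and 35.1 and 105 TPM with WM-1119, with a log2 difference of 0.50 ± 0.69 (SE) and a DMSO ratio of 3.01, the widest of the tested mouse members. Pfkm, at 12.8 and 20.1 TPM with DMSO and 22.6 and 28.5 TPM with WM-1119, separated the groups, and Pfkp, at 36.004 and 62.2 TPM with DMSO and 46.6 and 63.9 TPM with WM-1119, did not.

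Pfkfb4 had the smallest p-value of the members in ER-Hoxa9 in the fit without a block. With the replicate block the smallest limma adjusted p was that of Tpi1, 0.172, and that of Pfkfb4 was 0.195. Pfkfb4 was at 2.03 and 3.03 TPM with DMSO and 4.92 and 5.47 TPM with WM-1119, both WM-1119 libraries above both DMSO libraries. The log2 difference was 0.82 ± 0.21 (SE), with a limma adjusted p of 0.312. Pfkfb3 was at 28.997 and 28.97 TPM with DMSO and 27.999 and 27.1 TPM with WM-1119, a log2 difference of -0.07 ± 0.11 (SE), and Pfkfb2 stayed between 3.74 and 4.92 TPM.

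The aldolase Aldoa was at 529 and 1224 TPM with DMSO and 739 and 1537 TPM with WM-1119, a log2 difference of 0.40 ± 0.51 (SE), and Tpi1 at 184 and 445 TPM with DMSO and 279 and 643 TPM with WM-1119. Gapdh was again the most abundant member, at 1932 and 3007 TPM with DMSO and 2617 and 3651 TPM with WM-1119 with a log2 difference of 0.36 ± 0.27 (SE). Eno1 was at 702 and 1999 TPM with DMSO and 879 and 2536 TPM with WM-1119, Pgk1 at 406 and 968 TPM with DMSO and 519.6 and 1204 TPM with WM-1119 and Pkm at 286 and 845 TPM with DMSO and 545 and 1202 TPM with WM-1119. In each of these 6 genes the lowest library was DMSO replicate 1 and the highest WM-1119 replicate 2, with the other 2 between them in the order that makes the groups overlap. Pgam1, at 556 and 716 TPM with DMSO and 727 and 782 TPM with WM-1119, kept the groups apart. Aldoc was low, at 0.327 to 2.36 TPM, Eno3 lay between 4.76 and 6.31 TPM, and Eno2 lay under 0.4 TPM in all 4 libraries.

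Ldha was at 335 and 828 TPM with DMSO and 455 and 1056 TPM with WM-1119, a log2 difference of 0.40 ± 0.57 (SE), and Slc16a3 at 25.6 and 73.5 TPM with DMSO and 36.2 and 102 TPM with WM-1119, both with overlap. Slc16a1 was at 53.8 and 51.9 TPM with DMSO and 53.7 and 46.9 TPM with WM-1119, and Ldhb was listed at no more than 0.196 TPM, whereas in the separate MOLM-13 table LDHB stood above LDHA in every library. Pdhb, at 142 and 135 TPM with DMSO and 161 and 139 TPM with WM-1119 and a log2 difference of 0.11 ± 0.12 (SE) that became -0.03 after rescaling, and Pdha1, at 123 and 133 TPM with DMSO and 141 and 145 TPM with WM-1119, were among the steadiest members. The kinases Pdk1, at 19.3 and 40.9 TPM with DMSO and 22.4 and 46.4 TPM with WM-1119, and Pdk3, at 13.3 and 19.98 TPM with DMSO and 17.8 and 23.5 TPM with WM-1119, overlapped.

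Of 7 tested pentose phosphate genes, 4 had WM-1119 libraries wholly above DMSO, where 40.3% of all genes did. Taldo1 was at 248 and 320.3 TPM with DMSO and 445 and 392 TPM with WM-1119, a log2 difference of 0.57 ± 0.16 (SE) with a limma adjusted p of 0.313. Tkt, at 223 and 265 TPM with DMSO and 306 and 307 TPM with WM-1119, and Pgd, at 214 and 207 TPM with DMSO and 242 and 269 TPM with WM-1119, also kept the groups apart, but Pgd did not after rescaling. Pgls was at 278 and 261 TPM with DMSO and 248 and 248 TPM with WM-1119, below DMSO in both libraries, and Rpia and Rpe overlapped at 50.9 to 63.2 TPM and 27.8 to 32.8 TPM. After rescaling both Pgls and Rpe lay wholly below DMSO. The DMSO ratios of Taldo1, Tkt and Pgd were 1.29, 1.19 and 1.03, beside a median of 1.14 for all genes.

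Replicate 2 was the higher library of both groups for 25 of the 35 tested mouse members, where 26.4% of all genes showed this. A DMSO ratio of at least 2 was found for 11 members, where 5.49% of all genes reached it, and the median ratio was 1.49 beside 1.14. The summed members held 7146 and 12677 TPM with DMSO and 9427 and 15619 TPM with WM-1119. Of 15 HIF targets outside glycolysis that were tested, 10 were highest in replicate 2 of both groups, among them the mitophagy gene Bnip3 at 18.9 and 100.1 TPM with DMSO and 28.2 and 157 TPM with WM-1119 and Ankrd37 at 2.28 and 30.3 TPM with DMSO and 5.64 and 42.2 TPM with WM-1119. A DMSO ratio of at least 2 was found for 3 of the 15. Their log2 differences were positive for 9 and negative for 6, with a median of 0.14 beside 0.12 for all genes. In both pairs 8 were higher with WM-1119 and 3 lower, where 53.0% and 15.7% of all genes were. At an unadjusted limma p under 0.05, 0 were higher and 1, Vegfa, was lower, where 11.6% and 1.13% of all genes were. None passed the adjustment. Fam162a, not Bnip3 or Ankrd37, was the most abundant of this list. Of the 3 myeloid marker lists, the progenitor list had summed levels that did not overlap between groups. Mpo, the most abundant of the progenitor list, was at 385 and 1379.6 TPM with DMSO and 1419 and 1512 TPM with WM-1119, and 5 of the 9 tested genes of that list had an unadjusted p under 0.05 and a higher level with WM-1119, where 11.6% of all genes did, while 0 passed the adjustment. The summed progenitor list ran from 1848 to 3324 TPM with DMSO and from 3904 to 3979 TPM with WM-1119. The neutrophil list ran from 147 to 226 TPM with DMSO and from 117 to 292 TPM with WM-1119, and the monocyte and macrophage list from 80.2 to 113 TPM and from 101 to 103 TPM, both with overlap. Single genes of both lists were higher at an unadjusted p under 0.05. They were 2 of 6 tested neutrophil genes (Itgam and Hp) and 3 of 4 tested monocyte and macrophage genes (Cd14, Cd68 and Adgre1). In both lists 0 were lower at that level, where 1.13% of all genes were, and 0 passed the adjustment. The part of these lists in the members' values was not tested.

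Pathway genes outside the list were examined beside the members. The medians given here are of log2 differences, where those of all genes tested were 0.05 in MOLM-13 and 0.12 in ER-Hoxa9. Of 23 other glycolysis and pentose phosphate enzymes, 12 were tested in each line and 0 passed, with medians of 0.14 in MOLM-13 and 0.28 in ER-Hoxa9. The most abundant was ADPGK, an ADP-dependent glucokinase, in MOLM-13 and Pck2, a mitochondrial enzyme of gluconeogenesis, in ER-Hoxa9. None of 8 tested other sugar and lactate carriers passed in either line, with medians of 0.12 and 0.41 and BSG, the chaperone of the lactate carriers, the most abundant. Of the pyruvate and lactate branch, 15 genes in MOLM-13 and 11 in ER-Hoxa9 were tested and 0 passed, with medians of 0.06 and 0.14. Regulators of glycolytic genes, 16 and 15 tested, also gave 0 called, with medians of 0.06 and 0.11. At an unadjusted p under 0.05, FBP1 and SLC2A6 were higher and MLXIPL lower in MOLM-13, and H6pd, Slc2a9 and Emb were higher and Myc lower in ER-Hoxa9, of all the genes on these 4 lists. Over all genes tested, 2.08% were higher and 0.965% lower at that level in MOLM-13, and 11.6% and 1.13% in ER-Hoxa9. SLC2A6, a lysosomal hexose carrier, was at 1.58, 3.52 and 1.84 TPM with DMSO and 5.20, 6.70 and 5.98 TPM with WM-1119 in MOLM-13, with the groups apart. FBP1, an enzyme of gluconeogenesis, was at 16.9, 12.1 and 9.56 TPM with DMSO and 25.2, 17.7 and 20.3 TPM with WM-1119, also with the groups apart. In MOLM-13, 4.54% of all genes lay wholly above DMSO. MYC, which activates many glycolytic genes, was at 157, 127 and 170.0 TPM with DMSO and 136, 78.2 and 113 TPM with WM-1119 in MOLM-13, lower in all 3 pairs with overlapping groups. Myc was at 317 and 302 TPM with DMSO and 225 and 247 TPM with WM-1119 in ER-Hoxa9, with both WM-1119 libraries below both DMSO libraries. In ER-Hoxa9, 7.94% of all genes lay wholly below DMSO.

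**Figure D5:**
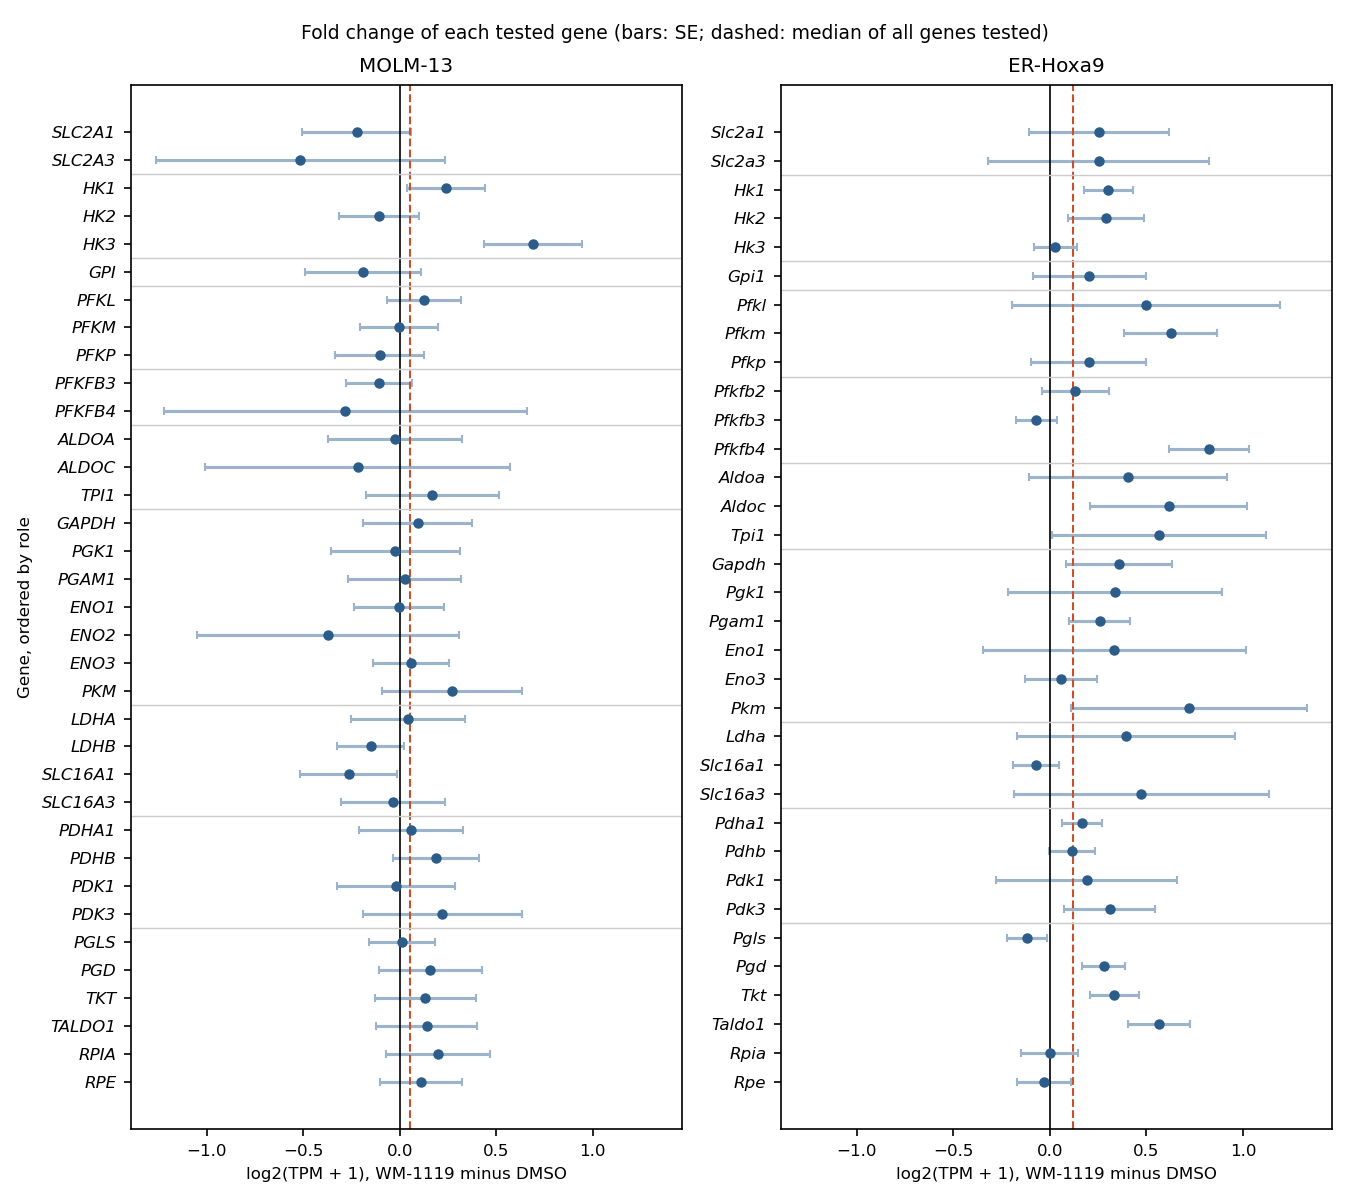
Log2(TPM + 1) difference, WM-1119 minus DMSO, of each tested member described in MOLM-13 (left) and ER-Hoxa9 (right), with bars for the standard error and a dashed line at the median of all genes tested. Points scatter on both sides of 0 in MOLM-13 and lie mostly above it in ER-Hoxa9, where 5 are below 0, with wide bars for the genes that varied between libraries.

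The responses of the lines were compared in a single limma fit over all 10 libraries and the 8727 symbols tested in both. Of 33 members in that fit, 0 differed between the lines, where 2 genes did (0.0229%), and 0 had an unadjusted p under 0.05, where 1.82% of all genes were higher and 0.298% lower in ER-Hoxa9. The median difference, ER-Hoxa9 minus MOLM-13, was 0.31 with 27 of 33 positive, beside 0.07 for all genes. Without DMSO replicate 1 of ER-Hoxa9 it was -0.04 with 15 positive. When the replicate numbers of each line were taken as blocks, 0 members passed, where 3 genes did (0.0344%), with 16 higher and 1 lower at an unadjusted p under 0.05 (10.8% and 3.75% of all genes). The smallest adjusted p was then that of PFKFB4, 0.148, with a difference of 1.11 ± 0.26 (SE), from -0.28 in MOLM-13 and 0.82 in ER-Hoxa9. For HK3 the log2 differences were 0.69 in MOLM-13 and 0.03 in ER-Hoxa9, a gap of -0.66 ± 0.32 (SE) with a limma adjusted p of 0.999828. The doses differed, so the fit compares the experiments as they were done.

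GAPDH, PGK1, ENO1, LDHA, LDHB, PGAM1, TPI1 and ALDOA have processed pseudogenes of near-identical sequence, and reads may be split between copies. The human table listed only PGAM1P5, TPI1P2 and TPI1P3 of those sought, none above 0.389 TPM.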

How the data were processed

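RNA was taken up on spin columns and libraries were prepared commercially, per the labels' protocols. For each line the authors deposited a single table of TPM by gene symbol, estimated with Salmon, and the submitters' processing notes name hg38 and mm10. Salmon's version and annotation were not given in the sources used here. TPM of a gene move with every other transcript of the library. Columns were assigned by treatment and number, with 0 left over. The name of the line in the mouse columns is absent from the labels, and these columns were taken as ER-Hoxa9, the only mouse line.

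Within a line, genes averaging 1 TPM or more were fitted as log2(TPM + 1) with limma 3.58.1 under R 4.3.3 (lmFit, then eBayes with a trend), two-sided. A Benjamini-Hochberg adjusted p under 0.05 over all genes was called. The fit was tested on simulated data. Alternatives changed the pseudocount, the expression minimum, the scaling, the block and the libraries used. Human gene coordinates come from GENCODE release 29 and promoter sequences from RefSeq. Figures were drawn with matplotlib 3.10.9.

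The members and lists were chosen with earlier results of these data known. Fold changes were printed for called members, for the most abundant member of each role and, where none was called, for the 3 smallest p-values of a line. A gene that this rule selects is not reported here. Genes outside the list that were named without being called or the most abundant of theirs were picked with their values in view. In MOLM-13 the deviations from the group means correlated across genes between libraries of the same number, at 0.52 (replicate 1), 0.44 (replicate 2) and 0.61 (replicate 3). In ER-Hoxa9 the correlation was 0.21. This is a single value, because with 2 libraries a group both numbers must give the same correlation. Each value is over 0.1, so same-numbered libraries are described as pairs. The fit has no block, and standard errors and adjusted p-values come from it unless the block is named.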

Additional observations from a re-analysis of the deposited data

How the results depend on the processing

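The count of members that passed the test was 0 in both lines and in the comparison of the lines under every alternative run. Of 363 alternative log2 differences of the named members, 333 kept their sign and 30 reversed, 24 of these when a library was left out. The count of all genes called in MOLM-13 went from 1 to 0 without an expression minimum, with the replicate block, with the block plus median-of-ratios scaling, and with the block without pair 1, 2 or 3 (pairs 1 and 2 were added after seeing the data), and ran from 0 to 6 with a library left out. In ER-Hoxa9 it went from 4 to 0 with a pseudocount of 0.1, no minimum, a minimum of 5 TPM or either block fit, to 2 without microRNA genes, and was 0 with any library left out. The 2 shared symbols that differed between lines became 40 with no minimum, 1 without microRNA genes, 3 with the replicate block, alone or with median-of-ratios scaling, 1 with the replicate block without pair 3, and 1 to 2 with a library left out. The block in ER-Hoxa9, where the deviations of same-numbered libraries correlated at 0.21, gave 16 members higher and 0 lower at an unadjusted p under 0.05, beside 1761 and 273 of the 11362 genes. The replicate block changed no call of a member.

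With a library left out, the MOLM-13 log2 differences ran from -1.10 to 0.20 for SLC2A3, -0.226 to 0.0381 for HK2, -0.385 to 0.106 for GPI, -1.05 to 0.66 for PFKFB4, -0.27 to 0.32 for ALDOA, -0.11 to 0.37 for GAPDH and -0.10 to 0.31 for TKT. In the block without pair 2 the values were -0.34 for SLC2A3, -0.04 for HK2, -0.07 for GPI and -0.02 for PFKFB4. They were 0.0767 for ALDOA, 0.17 for GAPDH and 0.24 for TKT. In ER-Hoxa9 the log2 differences with a library left out ran from -0.17 to 0.68 for Slc2a1, -0.0511 to 0.108 for Hk3, -0.12 to 0.53 for Gpi1, -0.28 to 1.28 for Pfkl, -0.20 to 1.01 for Aldoa and -0.26 to 1.05 for Ldha. With median-of-ratios scaling, alone or with the block, Hk3 was -0.118 and Pdhb -0.0322, and Hk3 was -0.0512 without ribosomal protein genes. The cause was not tested. Where a group was left with 1 library, that library was assumed to vary like the others. Depth cannot be read from TPM, and 2 or 3 libraries a group limit what can be detected.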
